A study of Mus musculus with 22 samples.

Results

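Squamous cornification genes and stefins were followed in the epithelium of the fetal mouse urogenital sinus, which gives rise to the prostate in males. The set is a list of 40 genes given by name, keratins left out, and a member was measured where a probe set carried its symbol and no other, under the current symbol or an older one of the same gene identifier. Of the 40, 39 had such a probe set, among 30102 genes of the array that did. Sprr2a1 was present only on probe sets shared with its copies Sprr2a2 and Sprr2a3. By role the list held 6 stefins and cystatins, 2 serine protease inhibitors, 4 kallikreins with 1 caspase, 10 envelope precursors and plakins, and 3 members of the filaggrin family. The others were 3 transglutaminases, 3 secreted suprabasal proteins, 2 lipoxygenases, and 6 calcium-binding, signalling or surface proteins.

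RNA was hybridised to Affymetrix whole-transcript arrays, 1 array per sample, at embryonic day E16.75, and all fetuses were C57BL/6J. Knockouts were ShhCre/+; Sox9fl/fl, with Cre recombinase expressed from the Shh locus and both Sox9 alleles floxed, and littermate controls were Shh+/+; Sox9+/fl, so every group carried at least 1 floxed Sox9 allele. Controls comprised 6 male and 5 female arrays, and knockouts likewise 6 male and 5 female. Replicates are labelled as biological, with no word on whether RNA was pooled over fetuses, and p-values measure the spread between these 22 arrays. Because every knockout and no control had Cre at 1 Shh allele, an effect of losing Sox9 and one of the Cre allele or of less Shh cannot be told apart.

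Cornification is the terminal differentiation of stratified squamous epithelium. Transglutaminases crosslink precursor proteins such as involucrin, loricrin and the small proline-rich proteins into an envelope that replaces the plasma membrane, while serine proteases and their inhibitors control how dead cells are shed. Stefins are small cytosolic inhibitors of cysteine cathepsins, and the mouse has a cluster of closely related copies next to each other. In the lower urogenital tract, cornification is best known from the vaginal epithelium under estrogen.

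Values are the deposited log2 expression values, in which a difference of 1 is a 2-fold difference. They ran from 1.59 to 14.23 over the whole table, array medians over transcript clusters lay between 5.10 and 5.27, and the median of 23 background control probe sets was 3.19. A gene was tested where its probe set lay above the array median on 5 or more arrays, as many as the female groups have. This left 19050 genes in all and 32 members. Of those, 25 were above the median on all 22 arrays and 7 on some: Krtdap on 5, Hrnr on 9, Spink5 on 12, Alox12b on 18, Cstdc5 on 20, and Stfa3 and Flg2 on 21 each. Krtdap passed through 4 female control arrays and 1 female knockout array, and Spink5 through the 12 male arrays, so these members had to differ between the sexes in order to be tested at all. Hrnr passed mostly through male arrays. Counts over the tested members are therefore descriptions and do not stand for the 40. A member was called in limma where its p, adjusted by Benjamini-Hochberg over the 19050 genes, was under 0.05. The arrays matched their genotype labels: Sox9 fell by 1.07 in male and by 1.00 in female knockouts, and Shh fell by 0.45 and by 0.56. All 9 measured markers of urogenital sinus epithelium, among them Foxa1 and Hoxb13, lay above the array median on all arrays, as did all 7 markers of basal and all 6 of urothelial epithelium. Female knockout 2, male knockout 4 and male control 6 stood apart in some values, and values without them are given beside several of the results they move.

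Stfa1 and Cstdc6 had the largest sex differences of the members in both genotypes, and promoters of the stefin cluster are shown so that its copies can be compared. That of Cstdc6 is not in the table. In the RefSeq table for GRCm38.p6, the mouse cluster on chromosome 16 ran in the order Csta1, Stfa2l1, Cstdc4, Csta3, Csta2, Stfa1, Cstdc3, Cstdc6, Cstdc5, Gm7260, Stfa2 and Stfa3. The 250 bases before the annotated start are given 5′ to 3′ on the coding strand. Capitals mark the longest run of bases that the windows of Stfa1, Cstdc5, Stfa3 and Stfa2 all hold, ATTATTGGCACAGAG, 15 bases long. The windows are chr16:36276898-36277147 on the plus strand for Stfa1, and on the minus strand chr16:36367571-36367820 for Cstdc5, chr16:36455393-36455642 for Stfa3 and chr16:36408364-36408613 for Stfa2.
Stfa1: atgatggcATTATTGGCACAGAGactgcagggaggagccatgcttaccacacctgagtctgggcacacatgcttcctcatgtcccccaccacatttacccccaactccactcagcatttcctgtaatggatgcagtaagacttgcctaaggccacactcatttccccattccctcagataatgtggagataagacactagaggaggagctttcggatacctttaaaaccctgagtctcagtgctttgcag
Cstdc5: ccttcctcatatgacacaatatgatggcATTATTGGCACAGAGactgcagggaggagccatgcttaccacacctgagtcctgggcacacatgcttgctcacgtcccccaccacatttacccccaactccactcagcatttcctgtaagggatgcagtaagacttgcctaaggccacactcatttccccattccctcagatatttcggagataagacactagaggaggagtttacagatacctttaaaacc
Stfa3: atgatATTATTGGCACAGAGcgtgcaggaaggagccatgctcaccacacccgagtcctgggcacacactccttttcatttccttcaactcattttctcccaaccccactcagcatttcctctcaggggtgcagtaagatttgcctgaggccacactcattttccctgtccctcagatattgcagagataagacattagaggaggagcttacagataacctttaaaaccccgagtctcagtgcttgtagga
Stfa2: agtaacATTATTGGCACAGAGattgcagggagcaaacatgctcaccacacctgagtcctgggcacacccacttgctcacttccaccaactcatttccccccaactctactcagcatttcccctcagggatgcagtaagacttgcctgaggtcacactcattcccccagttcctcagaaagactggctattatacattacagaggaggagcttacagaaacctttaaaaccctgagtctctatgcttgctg
The shared run began 242 bases before the start in Stfa1, 222 in Cstdc5, 245 in Stfa3 and 244 in Stfa2. Over the whole alignment, with gaps counted as differences, the Stfa1 window was 81.2% identical to that of Cstdc5, 83.1% to that of Stfa3 and 80.6% to that of Stfa2. With gaps left out, Stfa1 was identical to Cstdc5 at 220 of 229 aligned bases. For Stfa3 this was 211 of 246 and for Stfa2 204 of 247. With gaps counted, the least alike pair was Cstdc5 and Stfa2, at 70.6%. With gaps left out it was Stfa3 and Stfa2, at 203 of 247 aligned bases. The probe set of Stfa2 was never above the array median, and the other 3 genes were tested. Whether promoter identity bears on this was not tested.

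For comparison, the windows of Krtdap, a secreted suprabasal peptide that was also lower in males, and of Ivl, which encodes the envelope precursor involucrin, are shown with 2 motifs in capitals. These are an AP-1 site (TGANTCA, the motif of the Fos and Jun factors) and a TATA box (TATAAA), each searched on both strands. They lie at chr7:30787655-30787904 on the plus strand and chr3:92573736-92573985 on the minus strand.
Krtdap: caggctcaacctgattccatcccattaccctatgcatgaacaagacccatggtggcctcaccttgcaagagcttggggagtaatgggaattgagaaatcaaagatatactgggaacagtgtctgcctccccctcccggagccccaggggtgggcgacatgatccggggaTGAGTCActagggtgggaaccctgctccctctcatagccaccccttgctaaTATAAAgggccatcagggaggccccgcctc
Ivl: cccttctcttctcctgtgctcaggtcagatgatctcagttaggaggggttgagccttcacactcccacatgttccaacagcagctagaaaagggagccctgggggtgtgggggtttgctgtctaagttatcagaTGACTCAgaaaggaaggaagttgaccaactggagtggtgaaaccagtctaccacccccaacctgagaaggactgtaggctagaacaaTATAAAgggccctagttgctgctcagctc
The AP-1 match began 81 bases before the start in Krtdap and 116 in Ivl, and the TATA match 30 and 29 bases before it. Of the 33 listed members whose promoter the table holds, 11 had an AP-1 match: Serpinb5, Ivl, Lor, Sprr1a, Sprr1b, Sprr2b, Flg, Flg2, Krtdap, Dmkn and Sbsn. Among all 27025 promoters of the same length 6.87% had it. The TATA motif was in 11 of the 33 and in 13.0% of all promoters. None of the 4 stefin windows held either motif. Full palindromic response elements for the androgen receptor (AGAACA and TGTTCT with 3 bases between) and the estrogen receptor (GGTCA and TGACC with 3 bases between) were in 0 of the 33, against 0.0037% and 0.0629% of all promoters. Matches this rare would hardly occur among 33 promoters, so the 0 cannot tell whether either receptor acts on the members.

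Stefins and cystatins were compared first between the sexes. Stfa1, a stefin A copy, ran from 6.95 to 7.35 in male controls (median 7.16) and from 7.00 to 7.81 in male knockouts (median 7.51). The 5 female controls read 9.52, 9.10, 9.10, 8.96 and 9.76, and the 5 female knockouts 8.53, 9.58, 8.56, 8.59 and 9.0. Every female array lay above every male array. Stfa1 was 4.38-fold lower in male than in female controls (log2 difference -2.13, SE 0.18, adjusted p = 2.36e-08) and 2.61-fold lower in male than in female knockouts (-1.38, SE 0.18, adjusted p = 9.56e-06). These arrays measured bulk RNA, in which fewer cells of a type and less RNA per cell cannot be told apart.

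Cstdc6, another stefin of the cluster, had the largest sex difference of any member among controls. Male controls ran from 6.24 to 6.49 (median 6.35) and male knockouts from 6.43 to 6.92 (median 6.73). The female controls read 8.81, 8.44, 8.33, 8.13 and 8.95, and the female knockouts 7.66, 8.64, 7.63, 7.80 and 8.17. The sexes again did not overlap. Expression was 4.50-fold lower in male controls (log2 difference -2.17, SE 0.16, adjusted p = 2.3e-09) and 2.46-fold lower in male knockouts (-1.30, SE 0.16, adjusted p = 4.24e-06) than in females of the same genotype.

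Cstdc5, which the array's annotation lists under an older symbol, Stfa3, followed the same order of groups. Its values ran from 5.04 to 5.33 in male controls (median 5.27) and from 5.20 to 5.63 in male knockouts (median 5.38), close to the array medians. In females they were 7.08, 6.95, 6.66, 6.36 and 7.22 in controls and 6.24, 6.61, 6.01, 6.40 and 6.52 in knockouts. No male array reached a female one. The male level was 3.12-fold lower in controls (log2 difference -1.64, SE 0.13, adjusted p = 7.57e-09) and 1.93-fold lower in knockouts (-0.95, SE 0.13, adjusted p = 1.78e-05).

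Stfa3, the last gene of the cluster, differed less. Male controls ran from 5.77 to 6.53 (median 6.07), male knockouts from 5.26 to 6.14 (median 5.58), female controls from 6.56 to 7.39 (median 6.82) and female knockouts from 6.04 to 6.72 (median 6.36). Controls of the 2 sexes were separate, with the highest male just under the lowest female, while knockouts overlapped. It was 1.74-fold lower in male controls (log2 difference -0.80, SE 0.17, adjusted p = 0.00292) and 1.64-fold lower in male knockouts (-0.71, SE 0.17, adjusted p = 0.00739).

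The order of the group means, from low to high, was male control, male knockout, female knockout and female control for Stfa1, Cstdc5 and Cstdc6. For Stfa3 the male knockouts were lowest. Knockouts and controls of 1 sex overlapped for all 4 genes, and for Stfa3 the male controls also overlapped the female knockouts. Some female arrays held the same place in every copy: female control 5 was highest and female control 4 lowest of the female controls in all 4 genes, and female knockout 2 was highest of the female knockouts in all 4. No male array was highest or lowest of its group in all 4. Without female knockout 2 the difference between knockout males and females was -1.20 for Stfa1, -1.14 for Cstdc6, -0.89 for Cstdc5 and -0.63 for Stfa3, and all 4 were still called. Near-identical copies can bind the same transcripts, and probe sequences were not analysed here, so transcription of each copy and cross-hybridisation between copies cannot be told apart.

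The remaining cystatins gave no call. Cst6, cystatin M/E, an inhibitor of the protease legumain and of cathepsins in epidermis, ran from 5.18 to 5.70 over all arrays, with a male minus female difference of -0.13 in controls (95% interval -0.28 to 0.02) and -0.02 in knockouts (-0.18 to 0.13). Stfa2 stayed between 2.72 and 3.15 and was not tested. Of the 12 cluster genes, 10 had a probe set of their own and 4 were tested, and the probe sets of the other 6 were never above the array median. Among these 6, Csta3 read 4.15 to 4.58 on the female arrays and 3.58 to 4.05 on the male arrays, without overlap. It was too dim to test, and for the others the sexes overlapped. Outside the members, a list of 11 further stefins and cystatins had 9 with their own probe set, of which Cstb and Cst3 were tested and neither was called in any of the 6 comparisons.

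**Figure D1:**
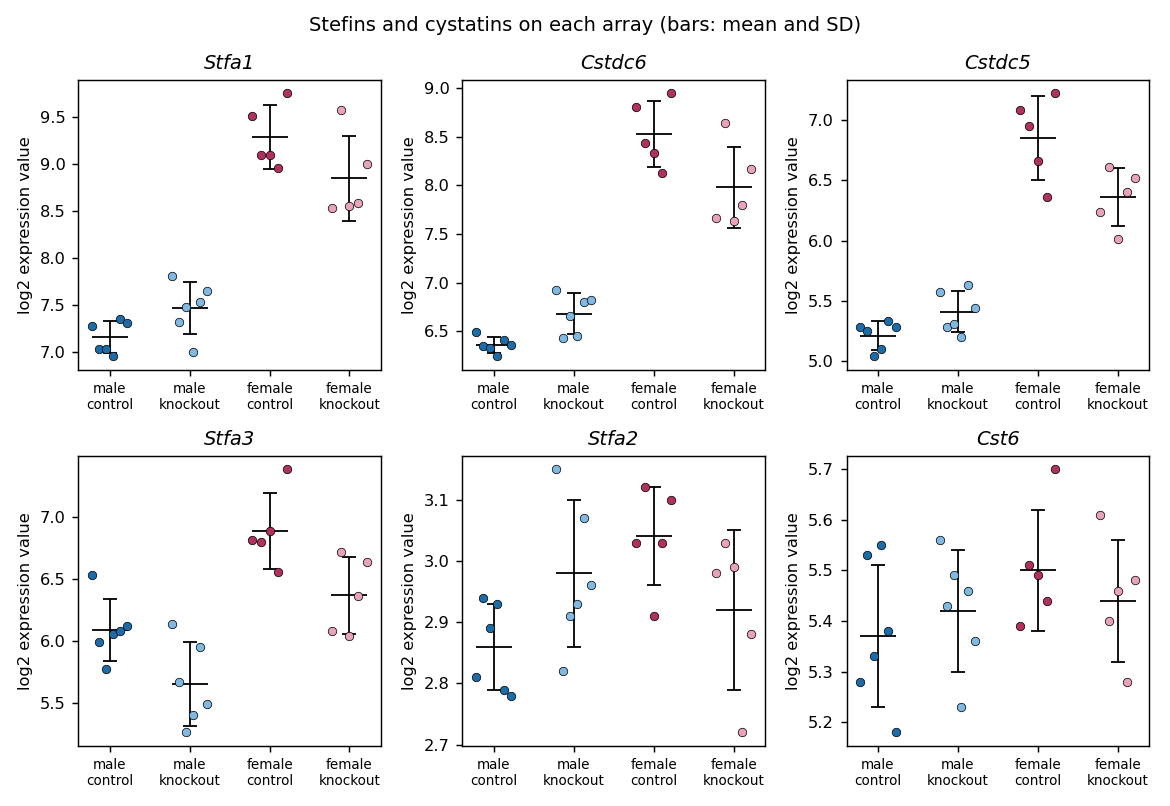
Log2 expression value (vertical axis, separate scale per gene) of 6 stefins and cystatins on each of the 22 arrays, by group; points are arrays and bars the mean and SD. For Stfa1, Cstdc6 and Cstdc5 every female array lies above every male array, while Stfa2 stays near 3 and Cst6 between 5.18 and 5.70 in all groups.

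Spink5 was the member that was higher in males. It encodes LEKTI, a serine protease inhibitor that holds back epidermal kallikreins. Male controls ran from 6.12 to 6.55 (median 6.36) and male knockouts from 5.18 to 6.72 (median 6.18). Female controls read 4.81, 4.77, 4.76, 4.99 and 5.01, and female knockouts 4.69, 4.75, 4.95, 4.78 and 4.92, all below the median of their array. The lowest male array, male knockout 4 at 5.18, still lay above every female. Males were 2.78-fold higher in controls (log2 difference 1.48, SE 0.17, adjusted p = 2.44e-06) and 2.40-fold higher in knockouts (1.26, SE 0.17, adjusted p = 1.59e-05). Because Spink5 passed the filter only through its 12 male arrays, these limma p-values are descriptions and lend no support to a sex difference. Without male knockout 4 the difference in knockouts was 1.44. Serpinb5, the serpin maspin, was not called: the control difference was -0.20 (95% interval -0.40 to 0.00) and that of the knockouts -0.10 (-0.30 to 0.10).

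The kallikreins among the members gave no sex call. Klk7 and Klk14, which cleave corneodesmosomes, Klk8, and Casp14, a caspase of cornifying cells that processes filaggrin, were tested, and Klk5 was too dim, at 4.59 to 4.97. Male minus female differences of the 4 tested genes ran from -0.20 (Casp14, 95% interval -0.43 to 0.03) to 0.06 (Klk8, -0.12 to 0.25) in controls, and from -0.10 (Casp14, -0.33 to 0.13) to 0.19 (Klk14, -0.12 to 0.49) in knockouts. A list of 29 other epidermal proteases and inhibitors, 18 of them tested, did hold calls. Of all genes tested, 6.94% were called in controls (3.27% higher and 3.67% lower in males) and 7.19% in knockouts. Klk10 (log2 difference 0.73, adjusted p = 4.38e-06), Klk13 (0.83, adjusted p = 0.000208) and the cathepsin Ctsc (0.36, adjusted p = 0.00843) were higher in male controls, and none of the 18 was lower. In knockouts, Klk10 (0.68), Klk11 (0.44), Klk13 (1.13) and Ctsc (0.35) were higher in males and Ctsl, a cathepsin that stefins inhibit, was lower (-0.29, adjusted p = 0.0379).

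Envelope precursors and plakins formed the largest role in the list, and limma called none of its 7 tested members between the sexes, with 1 at an unadjusted p under 0.05 in controls and 2 in knockouts. Over all genes tested 6.94% were called and 19.1% had such a p in controls, and 7.19% and 17.2% in knockouts, so 0 of 7 is near that background. Ivl ran from 8.82 to 9.21 in male controls (median 8.98), from 8.67 to 10.04 in male knockouts (8.92), from 9.05 to 9.72 in female controls (9.30) and from 9.02 to 9.81 in female knockouts (9.62). The groups overlapped, and the control difference of -0.34 had a 95% interval from -0.75 to 0.07. In knockouts the Ivl difference was -0.39 (-0.80 to 0.02), with male knockout 4 at 10.04 and the other male knockouts at 8.67 to 9.18. Its value without that array is not given here. Loricrin (Lor) differed by 0.15 in controls (-0.01 to 0.30) and by 0.21 in knockouts (0.06 to 0.37, adjusted p = 0.0989). The plakin periplakin (Ppl), which anchors the envelope to keratin filaments, differed by 0.08 in controls (-0.05 to 0.22) and by 0.20 in knockouts (0.07 to 0.33, adjusted p = 0.0588). In knockouts every male Ppl array, at 10.63 to 10.85, lay above every female one, at 10.43 to 10.57. Sprr1a, Sprr2b, envoplakin (Evpl) and cornifelin (Cnfn) differed by -0.22 to -0.04 in controls and by -0.07 to 0.06 in knockouts. Sprr1b (4.16 to 4.84) and Sprr3 (3.14 to 3.92) were too dim to test. The probe set shared by Sprr2a1, Sprr2a2 and Sprr2a3 had means of 10.68 ± 0.36 (SD, n = 6) in male controls, 10.73 ± 0.22 (n = 6) in male knockouts, 11.01 ± 0.20 (n = 5) in female controls and 10.84 ± 0.24 (n = 5) in female knockouts, and it names no single gene.

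Filaggrins and transglutaminases also gave no sex difference past the threshold. Flg, whose product bundles keratin filaments, ran from 6.44 to 6.84 over all arrays, and its relative Flg2 from 5.14 to 5.60. Hornerin (Hrnr) ran from 4.98 to 5.67 in male and from 4.82 to 5.52 in female controls, a difference of 0.44 (95% interval 0.11 to 0.77, adjusted p = 0.11). That value became a call without male control 3 (0.53, adjusted p = 0.0466) or female control 3 (0.57, adjusted p = 0.0259). Hrnr was above the array median on 5 male control, 3 male knockout, 1 female control and 0 female knockout arrays. It was thus tested mostly through males, and these p-values are descriptions. Tgm1, the membrane-bound transglutaminase of the envelope, differed by -0.07 in controls (-0.23 to 0.09) and Tgm5 by 0.19 (-0.03 to 0.41). Tgm3 passed the array median on 3 arrays and was not tested. The lipoxygenases Alox12b and Aloxe3, which act on the ceramides of the envelope's lipid layer, differed by -0.11 (-0.22 to -0.01, adjusted p = 0.192) and -0.05 (-0.18 to 0.07) in controls.

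The 3 secreted suprabasal proteins were all lower in males among knockouts, and 2 of them among controls. Krtdap, keratinocyte differentiation-associated protein, read 4.31 to 4.63 in male controls (median 4.53) and 3.72 to 4.35 in male knockouts (median 4.14), below the array medians. Female controls read 5.62, 5.57, 5.69, 5.40 and 5.21 and female knockouts 4.81, 5.76, 5.01, 5.13 and 5.09, above all males. Krtdap was 2.01-fold lower in male controls (log2 difference -1.01, SE 0.13, adjusted p = 2.1e-05) and 2.06-fold lower in male knockouts (-1.04, SE 0.13, adjusted p = 1.19e-05), or -0.89 without female knockout 2 (adjusted p = 1.34e-05). Because Krtdap passed the filter only through female arrays, these p-values too are descriptions. Dermokine (Dmkn) was 1.38-fold lower in male controls (-0.46, SE 0.10, adjusted p = 0.00387), where the sexes did not overlap, and 1.30-fold lower in male knockouts (-0.38, SE 0.10, adjusted p = 0.0178), where they did. The knockout call for Dmkn was lost without female knockout 1 (-0.32, adjusted p = 0.0677) or female knockout 2 (-0.34, adjusted p = 0.062). Suprabasin (Sbsn) was called in knockouts (-0.29, SE 0.07, adjusted p = 0.0127). In controls it differed by -0.21 (95% interval -0.36 to -0.06, adjusted p = 0.0892), and without female control 2 by -0.27 (adjusted p = 0.0335).

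Of the calcium-binding, signalling and surface proteins, Lgals7 and Sfn were lower in males. Lgals7, galectin-7 of stratified epithelia, ran from 9.25 to 9.45 in male controls (median 9.30) and from 8.82 to 9.16 in male knockouts (median 9.07). Female controls read 10.04, 9.94, 9.79, 9.78 and 10.23, and female knockouts 9.40, 10, 9.38, 9.40 and 9.34. Within each genotype every female array lay above every male array. The male level was 1.55-fold lower in controls (log2 difference -0.63, SE 0.10, adjusted p = 0.000196) and 1.39-fold lower in knockouts (-0.47, SE 0.10, adjusted p = 0.00339), or -0.35 without female knockout 2 (adjusted p = 0.00708). Sfn, 14-3-3 sigma, was 1.35-fold lower in male controls (-0.44, SE 0.05, adjusted p = 3.9e-06) and 1.17-fold lower in male knockouts (-0.22, SE 0.05, adjusted p = 0.00637), again without overlap. Calml3, a calmodulin-like protein of epithelia, differed by 0.18 in controls (95% interval -0.19 to 0.54) and Lypd3, a surface protein of suprabasal cells, by -0.06 (-0.21 to 0.09). S100a8, at 2.64 to 3.32, and S100a9, at 4.33 to 5.23, were too dim to test.

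**Figure D2:**
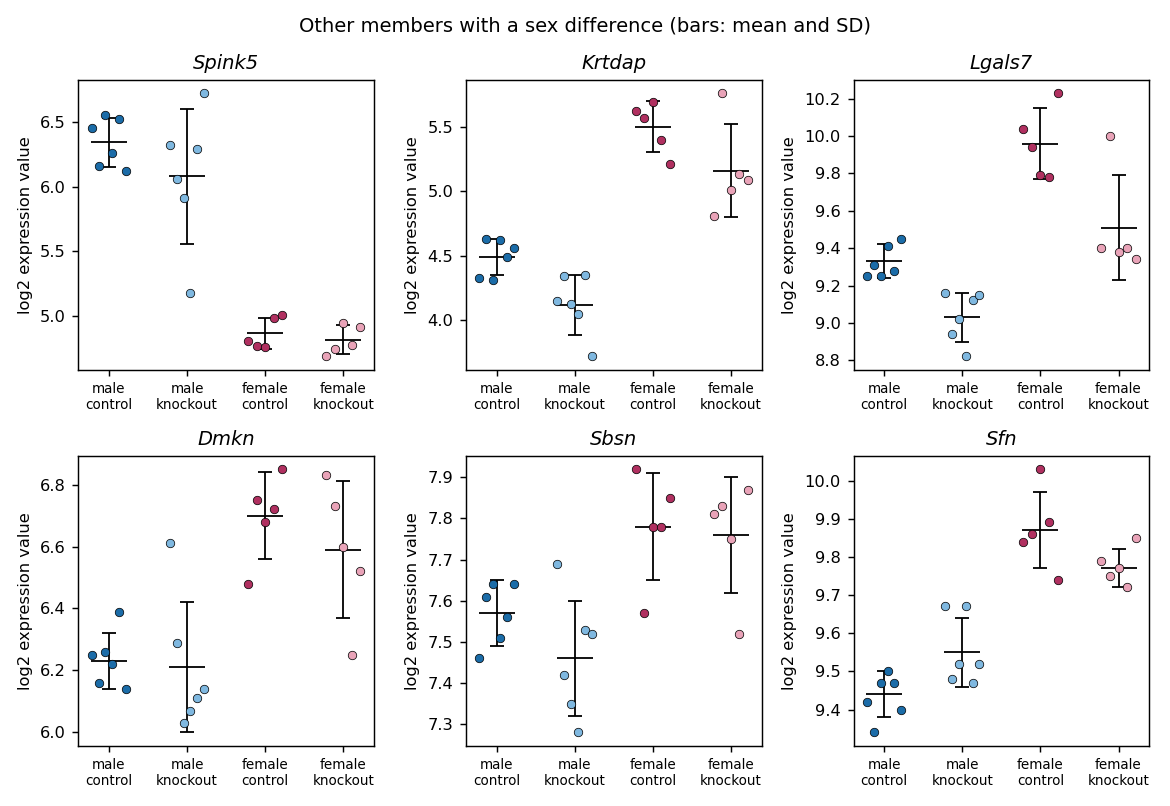
Log2 expression value (vertical axis, separate scale per gene) of Spink5, Krtdap, Lgals7, Dmkn, Sbsn and Sfn on each of the 22 arrays, by group; points are arrays and bars the mean and SD. Spink5 is higher in all 12 male arrays than in any female array, Krtdap lower in all of them, and female knockout 2 stands above the other female knockouts in Krtdap and Lgals7.

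In all, 9 of the 32 tested members were called between control males and females, 1 higher and 8 lower in males, where 6.94% of all genes tested were called (3.27% higher and 3.67% lower). Between knockout males and females 10 were called, 1 higher and 9 lower, where 7.19% of all genes were (3.66% higher and 3.52% lower). Unadjusted p-values under 0.05 were found for 14 members in controls (19.1% of all genes) and 13 in knockouts (17.2%). The 9 called in controls were also called in knockouts, and Sbsn was added. Spink5, the 1 higher, and Krtdap, 1 of the lower, passed the filter only through arrays of 1 sex, so their calls are descriptions. The median difference of the 32 was -0.08 in controls and -0.02 in knockouts, against -0.01 for all genes tested in each. Groups that did not overlap were found for 9 members in controls (5.64% of all genes) and 8 in knockouts (5.82%). The calls fell in 4 roles: stefins, serine protease inhibitors, secreted suprabasal proteins, and the signalling and surface group. The 4 called stefins are related copies that may share probes, so they may not count as 4 separate members against the share of all genes.

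**Figure D3:**
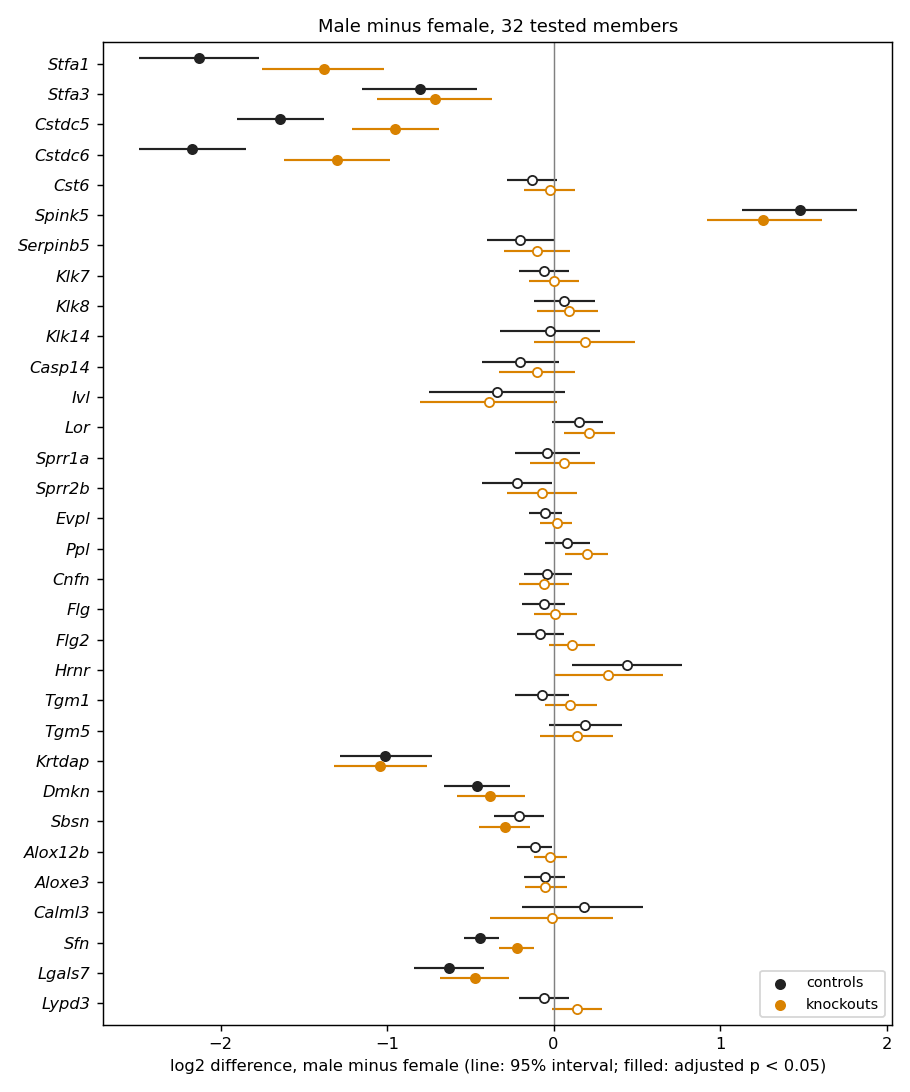
Male minus female log2 difference (horizontal axis) of the 32 tested members in controls (black) and knockouts (orange); lines are 95% intervals and filled points have an adjusted p under 0.05. Stfa1, Cstdc5, Cstdc6 and Krtdap lie farthest to the left and Spink5 alone far to the right, while the envelope precursors, filaggrins and transglutaminases have open points, among which Hrnr (0.44 in controls) and Ivl (-0.39 in knockouts) lie farthest from 0.

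Markers of other cell types were set beside these differences. Between the sexes 6.94% of all genes were called in controls and 7.19% in knockouts, with 19.1% and 17.2% at an unadjusted p under 0.05. In lists this short, 0 or 1 call is near that background. Of 10 neutrophil genes, cells in which some stefins and S100a8 are abundant, 3 were never above the array median, and the mean over the list ran from 4.93 to 5.14 over all 22 arrays. None of the 5 tested was called in limma, and 2 had an unadjusted p under 0.05 between knockout males and females and 0 in each other comparison. Of 6 squamous and suprabasal keratins, 5 had a probe set of their own, and their mean was 8.31 to 8.43 in male controls and 8.35 to 8.71 in female controls. In controls 1 of the 5 was called, Krt10, the suprabasal keratin of epidermis, 1.48-fold lower in males (log2 difference -0.57, adjusted p = 0.00562), while 1 of the others, Krt4, was positive at 0.21 and the median was -0.11. In knockouts limma called 0 of the 5, with 1 at an unadjusted p under 0.05, and 3 differences were positive and 2 negative (median 0.13). Of 7 basal markers the keratin gene Krt14 was called, lower in males in controls (-0.30, adjusted p = 0.0349) and in knockouts (-0.35, adjusted p = 0.0141). The other 6 were not called, and the list's median was -0.02 in controls, with 3 positive and 4 negative, and 0.02 in knockouts, with 4 positive and 3 negative. Of 8 markers of other leukocytes 7 were tested and 0 called in limma: between knockout males and females all 7 differences were negative (median -0.18, 2 with an unadjusted p under 0.05), and all 7 were positive between female knockouts and controls (median 0.18, 1 such p). The 6 urothelial markers all had negative differences between male and female knockouts (median -0.22, 1 such p) and 0 were called, while in controls 2 were positive and 4 negative (median -0.02). The part of such cell types in the members' differences was not tested. The mean over 7 mesenchyme markers was 7.74 in male control 6, against 6.58 to 6.80 in the other male controls. Without it 9 members were still called between the control sexes, with Stfa1 at -2.16 and Spink5 at 1.52.

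Other genes of the squamous programme were counted from lists, to be read against 6.94% of all genes called in controls (3.27% higher, 3.67% lower, 19.1% at an unadjusted p under 0.05) and 7.19% in knockouts (17.2% at such a p). Of 52 further genes of the cornified envelope and the epidermal gene cluster, late cornified envelope genes included, 49 had their own probe set, 29 of these were never above the array median and 18 were tested. In controls the desmosomal genes Pkp1 (-0.48, adjusted p = 0.000138) and Dsp (-0.21, adjusted p = 0.0249) were lower in males and Anxa9 (0.45, adjusted p = 0.0284) higher. None of the 18 was called between knockout males and females in limma, where 2 had an unadjusted p under 0.05. Of 12 tested genes of barrier lipids, 0 were called in controls, with 6 at an unadjusted p under 0.05, and in knockouts Elovl4, an elongase of very long fatty acids, was lower in males (-0.56, adjusted p = 0.00466). Of 31 tested regulators of squamous differentiation, 0 were higher and 4 lower in male controls: Jun (-1.04, adjusted p = 7.99e-05), Fosl2 (-0.39, adjusted p = 0.000467), Cebpa (-0.49, adjusted p = 0.00011) and Maf (-0.23, adjusted p = 0.0125). In knockouts the same 4 were lower with Barx2, while Grhl2, Ehf, Elf3, Tfap2a and Nfe2l2 were higher in males. Jun and Fosl2 encode AP-1 factors.

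Knockouts, which differ from controls in Sox9, in the Cre allele and in their Shh level, were then compared with controls of the same sex. In males 0 of the 32 tested members were called in limma, where 9 had an unadjusted p under 0.05 (6.27% of all genes) and 0.199% of all genes tested were called. In females 0 were called, with 8 at an unadjusted p under 0.05 (5.46% of all genes) and 0.0315% of all genes called. The median log2 difference of the 32 was 0.06 in males and -0.08 in females, against 0.01 for all genes in each. Arrays of knockouts and controls did not overlap for Sprr1a and Lgals7 in males (0.42% of all genes) and for Tgm1 in females (1.39%).

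**Figure D4:**
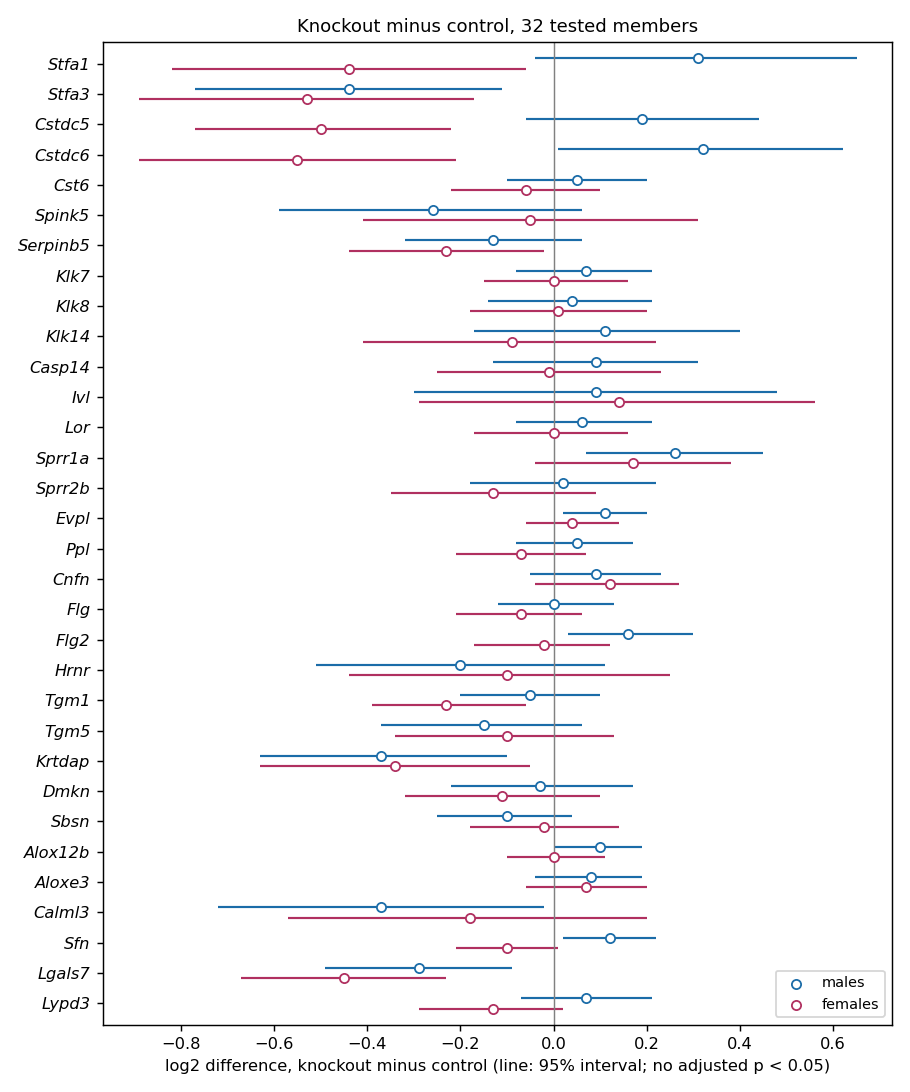
Knockout minus control log2 difference (horizontal axis) of the 32 tested members in males (blue) and females (red); lines are 95% intervals, and all points are open because no adjusted p was under 0.05. Stfa1, Cstdc5 and Cstdc6 lie to the right of 0 in males and to the left in females, and Stfa3, Krtdap and Lgals7 to the left in both.

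Lgals7 was the member called when the male and female effects were averaged, a comparison in which 0.247% of all genes were called, 0.0472% higher and 0.199% lower. In it 9 members had an unadjusted p under 0.05 (7.19% of all genes). It fell by 0.37 on the log2 scale, a 1.29-fold decrease (95% interval -0.52 to -0.22, SE 0.07, adjusted p = 0.0155). Among males the knockouts reached at most 9.16 and the controls at least 9.25, a difference of -0.29 (-0.49 to -0.09, adjusted p = 0.489). In females the difference was -0.45 (-0.67 to -0.23, adjusted p = 0.299), where 4 knockouts read 9.34 to 9.40 and female knockout 2 read 10, inside the range of the controls. Without female knockout 2 the female difference was -0.57 and was called (adjusted p = 0.00366). The averaged call kept an adjusted p between 0.000164 and 0.0445 over all alternatives, each array left out in turn among them.

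Krtdap and Stfa3 had negative differences in both sexes without a call. Krtdap differed by -0.37 in males (95% interval -0.63 to -0.10) and -0.34 in females (-0.63 to -0.05), or -0.49 in females without female knockout 2, with an average of -0.35 (adjusted p = 0.189). Without female knockout 2, the highest female knockout at 5.76, the average was -0.43 and was called (adjusted p = 0.0082). Krtdap had passed the filter through 4 female controls and, of the knockouts, that array alone. Without it Krtdap would not have met the filter, so this call is a description. The values of Stfa3 were -0.44 in males (-0.77 to -0.11) and -0.53 in females (-0.89 to -0.17), with an average of -0.48 (adjusted p = 0.109). Without male knockout 1 that average was -0.53 and was called (adjusted p = 0.0384).

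The other stefins had differences of opposite sign in the 2 sexes. Stfa1 differed by 0.31 in males (95% interval -0.04 to 0.65) and -0.44 in females (-0.82 to -0.06). For Cstdc5 the values were 0.19 (-0.06 to 0.44) and -0.50 (-0.77 to -0.22), and for Cstdc6 0.32 (0.01 to 0.62) and -0.55 (-0.89 to -0.21). The test of the male minus the female effect called 0 of the 32 members in limma, with 4 at an unadjusted p under 0.05 (4.04% of all genes), where 0.00525% of all genes were called. Those 4 were Cstdc6 (difference of effects 0.87, 95% interval 0.41 to 1.32), Stfa1 (0.75, 0.23 to 1.26), Cstdc5 (0.69, 0.32 to 1.06) and Sfn (0.21, 0.06 to 0.36), each with an adjusted p = 0.997. Without female knockout 2 the value was 1.03 for Cstdc6 (adjusted p = 0.0978), 0.93 for Stfa1 and 0.75 for Cstdc5, and the female differences were -0.72, -0.62 and -0.56, none of them called.

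Most envelope genes varied little between genotypes. Sprr1a, a small proline-rich precursor, read 8.6 to 9.25 in male controls (median 9.18) and 9.28 to 9.49 in male knockouts (median 9.32), a difference of 0.26 (95% interval 0.07 to 0.45, adjusted p = 0.555). Without male control 1, its lowest array, this was 0.16. In females the Sprr1a difference was 0.17 (-0.04 to 0.38). Tgm1 read 9.86, 9.78, 9.78, 9.75 and 9.84 in female controls and 9.59, 9.52, 9.53, 9.66 and 9.57 in female knockouts, which did not overlap (difference -0.23, -0.39 to -0.06, adjusted p = 0.821). In males the Tgm1 difference was -0.05 (-0.20 to 0.10). Calml3 differed by -0.37 in males (-0.72 to -0.02) and -0.18 in females (-0.57 to 0.20), and without male knockout 4 its male difference was -0.25. The intervals of Lor, Flg, Klk7 and Klk8 all lay within 0.21 of 0 in both sexes.

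Ivl had the widest spread of the envelope genes among knockouts, with a genotype difference of 0.09 in males (95% interval -0.30 to 0.48) and 0.14 in females (-0.29 to 0.56). Male knockout 4 read 10.04 against 8.67 to 9.18 in the other 5, and female knockouts 1, 3 and 5 read 9.81, 9.81 and 9.62 against 9.09 and 9.02. The same 4 arrays had the 4 highest means over the 6 urothelial markers (5 uroplakin genes and Krt20), at 10.48 in male knockout 4 and 10.55, 10.48 and 10.44 in the females, where all other arrays lay between 9.66 and 10.20. Female control 5 had a urothelial mean of 9.83 and read 9.72 for Ivl, above female knockout 5. Female knockout 2 had the lowest urothelial mean of its group, 9.87, and its highest stefin, Lgals7 and Krtdap values. Female knockout 4 had a urothelial mean of 9.96, and its Lgals7 (9.40) and Stfa1 (8.59) were like those of female knockouts 1 and 3. None of the 6 markers was called for genotype in limma, where 0.199% of all genes were in males and 0.0315% in females. In females all 6 differences were positive, 4 of them with an unadjusted p under 0.05 (5.46% of all genes). Upk3a was largest at 0.55 (-0.04 to 1.15). Bladder and urethral epithelium had been removed by dissection, per the labels' protocols. The part of urothelial cells in the members' values was not tested.

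**Figure D5:**
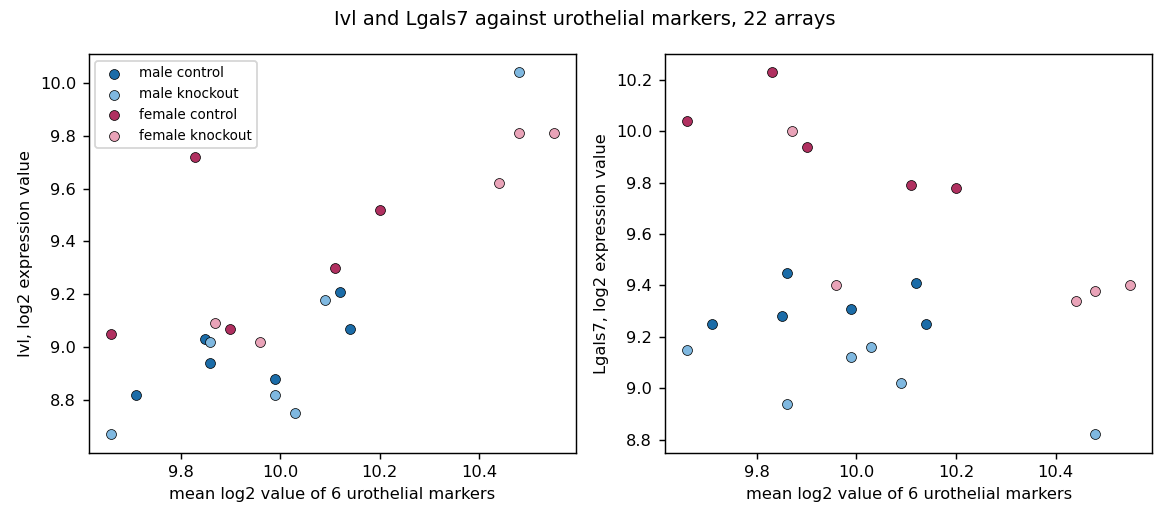
Log2 expression value of Ivl (left) and Lgals7 (right) against the mean log2 value of 6 urothelial markers (horizontal axis) on each of the 22 arrays, coloured by group. The 4 arrays with urothelial means from 10.44 to 10.55 include the 3 highest Ivl values and no Lgals7 value above 9.40.

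In the same comparisons the other lists of the squamous programme were counted. Of all genes tested, 0.199% were called in males, 0.0315% in females and 0.247% on average. Unadjusted p-values under 0.05 were found for 6.27%, 5.46% and 7.19% of them. Among the 18 other envelope genes, 18 proteases and inhibitors, 12 barrier lipid genes and 31 regulators tested, 0 were called for genotype in limma in either sex, with 2, 2, 1 and 6 at an unadjusted p under 0.05 in males and 3, 1, 3 and 8 in females. Averaged over the sexes, the regulators Ehf (-0.24, SE 0.04, adjusted p = 0.0107) and Barx2 (-0.38, SE 0.08, adjusted p = 0.0191) fell and no other regulator was called. These were 2 of 31 regulators, where 0.247% of all genes were called. Trp63, the factor that stratified epithelia need to form, differed by 0.02 on average (95% interval -0.05 to 0.09).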

How the data were processed

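The authors deposited 1 table of log2 expression values with 72688 probe sets on 22 arrays, 65770 of them transcript clusters. The log2 scale was read from the values, and the software for background correction, normalization and summarization is not given in the sources used here, so values were used as deposited. Precision is limited by the number of arrays. Every value column of the deposited table matched a labelled sample. Names came from the platform's annotation, in which 30439 had exactly 1 symbol, 827 of them updated through gene identifiers, and the probe set of highest mean stood for a gene. Probe sets above the 50th percentile of transcript clusters on at least 5 arrays were tested. Each of 6 comparisons was a contrast of 4 group means over all 22 arrays in limma 3.58.1 (R 4.3.3), two-sided, with Benjamini-Hochberg adjustment over 19050 genes and no covariate, since no litter or batch is labelled. The code was tested on simulated data.

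The 40 members and the other lists were chosen with earlier results of these data known. All members are named, as are called genes of the other lists and Sox9 and Shh. Deviations of same-numbered arrays of different groups correlated at -0.212 to 0.253. Between female and male knockouts all 5 correlations were positive, from 0.0117 to 0.253, and both signs occurred between the other groups. Differently numbered arrays were not compared, so whether the numbers pair the arrays was not tested. Alternatives were quantile normalization, median centring, no filter, a 75th percentile filter, probe sets of a gene averaged, trend and robust options, only the groups compared, a replicate block, and each array left out in turn. Promoters came from RefSeq for GRCm38.p6, aligned with Biopython 1.88. Protein sequences were not used here. Figures were drawn with matplotlib 3.10.9.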

Additional observations from a re-analysis of the deposited data

Results flagged for a closer look

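In 13 of 156 combinations of a member and a group, the highest or lowest array lay far from the others by Dixon's test, which by chance marks about 1 in 20. Among envelope precursors these were Ivl in male knockout 4 (10.04, others 8.67 to 9.18), Sprr1a in male control 1 (8.6, others 9.03 to 9.25) and in male knockout 1 (9.49, others 9.28 to 9.33), Sprr1b in male knockout 5 (4.30, others 4.60 to 4.76), Sprr2b in male control 1 (7.43, others 7.90 to 8.05) and the plakin Ppl in female control 5 (10.33, others 10.61 to 10.69). The protease Klk7 was high in male control 4 (5.99, others 5.55 to 5.63) and low in male knockout 4 (5.54, others 5.72 to 5.80). In the filaggrin family, Flg2 was high in male control 4 (5.54, others 5.14 to 5.23) and Hrnr in female control 3 (5.52, others 4.82 to 4.91). Galectin-7 (Lgals7) was high in female knockout 2 (10, others 9.34 to 9.40), S100a8 in male knockout 1 (2.94, others 2.67 to 2.76), near the background probe sets, and Lypd3 was low in female control 4 (9.11, others 9.22 to 9.25).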

How the results depend on the processing

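Over 57 member values and 1674 alternatives, 1657 kept their direction and side of the threshold, 14 became calls, 3 lost one and 0 reversed. The 3 losses were Dmkn between knockout males and females, without female knockout 1 or 2 as given above, and with only the arrays of those groups (adjusted p = 0.082). With the 75th percentile filter 17 members were tested, and 4 were called between control sexes in place of 9 and 6 between knockout sexes in place of 10, because fewer members entered. With each array left out in turn, called members numbered 0 to 0 for male knockouts, 0 to 1 for female knockouts, 1 to 2 for the average, 9 to 10 between control sexes, 9 to 14 between knockout sexes and 0 to 0 for the difference of effects. With the replicate number as a block these counts were 0, 0, 1, 9, 10 and 0, and the block changed no count of called members. Ppl was called between knockout sexes at 0.20 under 3 alternatives without loss of an array there (75th percentile filter, trend and robust options, only those groups). Rescaling moved the median of all genes to at most 0.019 above and 0.025 below 0 (-0.025). Signal limits what 7 dim members can show.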
